A study of Homo sapiens with 24 samples.

Results

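The change in translational efficiency over the first 3 days of sgDDX3 knockdown in K562 cells was measured in 8 of the 24 libraries of the series. These were 2 ribosome footprint libraries and 2 cytosolic RNA libraries at day 3, set against 2 footprint and 2 RNA libraries at day 0. K562 is an established human chronic myelogenous leukaemia line. All cells carried CRISPR interference, in which a repressor induced with doxycycline (50 ng/ml) is sent to a promoter by a guide RNA, and the labels give that dose for the day 0 samples too without saying whether those cells had received it. The guide sgDDX3 is aimed at DDX3X, and the control guide sgGal4 was sampled at the same days. The other 16 libraries are the 8 sgGal4 libraries of days 3 and 0, used below as the control contrast, and the day 14 libraries of both guides. Whether the line was 1 clone and whether the replicates were separate cultures is not given in the sources used here, so p-values here reflect no more than how far these libraries lie apart, and that spread may be technical. Of 57992 genes in both tables, 19197 were protein-coding, and 11519 of those had enough counts in both assays to be tested.

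Ribosome profiling sequences the stretches of mRNA that ribosomes protect from nuclease, and the footprints of a gene set over its RNA give its translational efficiency, a relative measure of how many ribosomes each mRNA carries. DDX3X is a DEAD-box RNA helicase that acts in translation initiation, where the small ribosomal subunit joins at the cap and scans the 5′ leader for a start codon. Leaders that are rich in G and C fold stably and are known to need helicase activity to be scanned. DDX3X is known above all as such a helper of a subset of mRNAs, while EIF4A is the general helicase of initiation. Both assays were scaled to their own totals, so a change shared by all mRNAs, or a change in RNA or ribosomes per cell, is not seen in these values, and in bulk cells less RNA per cell and fewer cells of a kind cannot be told apart.

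The targeted gene was low at day 3 in both assays. DDX3X RNA was at 39.0 and 33.8 CPM (counts for each 1000000 of the library's scaled total) in the sgDDX3 libraries of day 3, against 176 and 186 CPM at day 0, which is 20.1% of the day 0 mean. Its footprints were at 31.4 and 41.9 CPM at day 3, against 145 and 161 CPM at day 0, or 23.9%. The days did not overlap in either assay. RNA fell by 2.30 ± 0.12 on the log2 scale (SE; adjusted p = 1.17e-12) and footprints fell by 2.05 ± 0.13 (adjusted p = 1.74e-10; edgeR quasi-likelihood test with Benjamini-Hochberg adjustment, as for all adjusted p-values that follow). The efficiency of the DDX3X mRNA itself had a log2 change of 0.25 ± 0.17 (adjusted p = 0.512) and was not called.

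Lower efficiency was the main direction of change. With an adjusted p under 0.05, efficiency fell at day 3 for 553 coding genes (4.80% of 11519) and rose for 98 (0.851%). The lower genes made up 84.9% of all calls, and the share was between 72.8% and 89.0% when each of the 8 libraries was left out in turn. The median log2 change over all tested coding genes was 0.03 in efficiency. Counts depended on single libraries. The lower genes numbered 332 without day 3 footprint replicate 2, 333 without day 0 RNA replicate 2 and 347 without day 0 footprint replicate 1. The higher genes numbered 152 without day 3 footprint replicate 1, 41 and 56 without day 0 RNA replicates 2 and 1, 45 and 47 without day 0 footprint replicates 1 and 2, and 55 without day 3 RNA replicate 2. All 553 lower genes still had a negative value and all 98 higher genes a positive one in each of the 14 alternatives run on this contrast.

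The genes of lower efficiency differed in which of the 2 assays was called. Over all coding genes, footprints rose for 739 (6.42%) and fell for 1025 (8.90%), and RNA rose for 1659 (14.4%) and fell for 1433 (12.4%). Without 1 of the day 0 footprint libraries or of day 3 footprint replicates 1 and 2, footprints rose for 325 to 620 genes and fell for 599 to 729. Without 1 of the day 0 or day 3 RNA libraries, RNA rose for 947 to 1195 and fell for 759 to 997. Among the 553 genes of lower efficiency, 239 (43.2%) had more RNA with no called change in footprints, 166 (30.02%) had fewer footprints with no called change in RNA, and 127 (23.0%) had fewer footprints on more RNA. Of the remaining 21 genes, 17 had neither called, 2 had both lower and 2 both higher. These classes rest on the threshold. The 239 had a median footprint change of -0.19 (-0.004 over all tested genes). The 166 had a median RNA change of 0.11 (0.003 over all tested genes). The medians of all 553 were -0.71 in efficiency, -0.39 in footprints and 0.37 in RNA. Of the 553, 521 had a negative footprint change and 510 a positive RNA change. RNA stands in the denominator of the efficiency, so these RNA values and the efficiency are not independent. The 98 genes of higher efficiency were split otherwise: 61 had more footprints with no called change in RNA, 23 had less RNA with no called change in footprints, and 8 had more footprints on less RNA. In 3 neither was called, in 2 both were lower and in 1 both were higher. Their medians were 0.91 in efficiency, 0.78 in footprints and -0.19 in RNA.

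**Figure D1:**
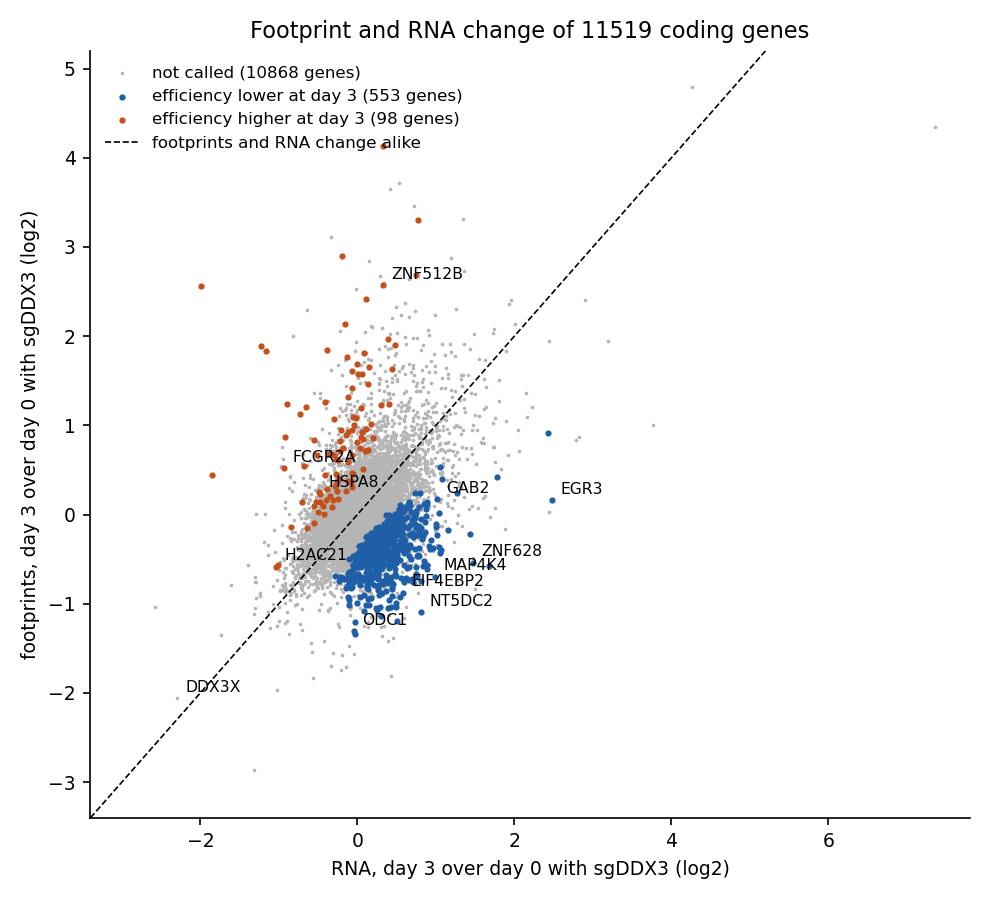
Each point is 1 of 11519 coding genes, with the log2 change of its RNA at day 3 over day 0 with sgDDX3 on the x axis and that of its footprints on the y axis. The 553 genes of lower efficiency (blue) lie below the dashed line of equal change and mostly right of 0, the 98 of higher efficiency (orange) lie above it, and DDX3X lies near the line at the lower left.

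All 553 lower genes and 97 of the 98 higher genes had ratios of footprints to RNA that did not overlap between the days, whichever footprint library was set over whichever RNA library, as did 3702 (32.1%) of all tested genes. Among such genes with a mean of at least 10 CPM in both assays, the efficiency of the 12 lowest fell by 1.46 to 2.01 on the log2 scale. The lowest was ZNF628, a zinc finger protein on chromosome 19. Its footprints were at 10.1 and 9.78 CPM at day 3, against 15.004 and 14.0 CPM at day 0, while its RNA was at 63.7 and 65.0 CPM at day 3, against 23.7 and 22.4 CPM at day 0. Its RNA was 2.78-fold higher while its footprints were fewer, and its ratio of footprints to RNA was 0.154 at day 3, against 0.629 at day 0 (log2 change -2.01 ± 0.19, SE; adjusted p = 2.60e-07). NT5DC2, a gene of the 5′-nucleotidase domain family, had 26.2 and 27.0 footprint CPM at day 3, against 57.4 and 56.0 CPM at day 0, and its RNA was at 180 and 199 CPM, against 110 and 106 CPM (efficiency -1.90 ± 0.14). MAP4K4, a kinase upstream of the JNK pathway, had 55.0 and 48.5 footprint CPM at day 3, against 81.0 and 85.8 CPM at day 0, on RNA at 428 and 439 CPM, against 209 and 227 CPM (efficiency -1.69 ± 0.13). In these 3 genes RNA and footprints moved in opposite directions with sgDDX3 and the days did not overlap in either assay. With sgGal4, NT5DC2 RNA and footprints both rose, by 0.32 ± 0.09 (adjusted p = 0.0254) and 0.42 ± 0.09 (adjusted p = 0.00889). ZNF628 RNA fell with sgGal4, by 0.37 ± 0.11 (adjusted p = 0.0414), and MAP4K4 had no called change in either assay.

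STX3, a syntaxin that drives membrane fusion at the cell surface, had 29.4 and 29.2 footprint CPM at day 3, against 56.1 and 63.7 CPM at day 0, and 193 and 197 RNA CPM, against 135 and 142 CPM (efficiency -1.53 ± 0.13). AXIN1 is described with the Wnt genes. TOPBP1, which activates the ATR checkpoint kinase at stalled replication forks, had 26.0 and 28.2 footprint CPM at day 3, against 50.3 and 60.4 CPM at day 0, with RNA at 225 and 217 CPM, against 160 and 168 CPM. The others were HES6 (-1.48), a helix-loop-helix regulator of differentiation, the rhomboid family member RHBDD2 (-1.48), the THAP domain protein THAP4 (-1.47), the cytosolic carboxypeptidase AGBL5 (-1.46) and AP5B1 (-1.46), a subunit of the AP-5 adaptor of endosomes. The 11 of these genes that are named kept their call in the 14 alternatives, with an adjusted p of at most 0.000474. In each of the 11, the difference from the change with sgGal4 passed its own test as well.

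**Figure D2:**
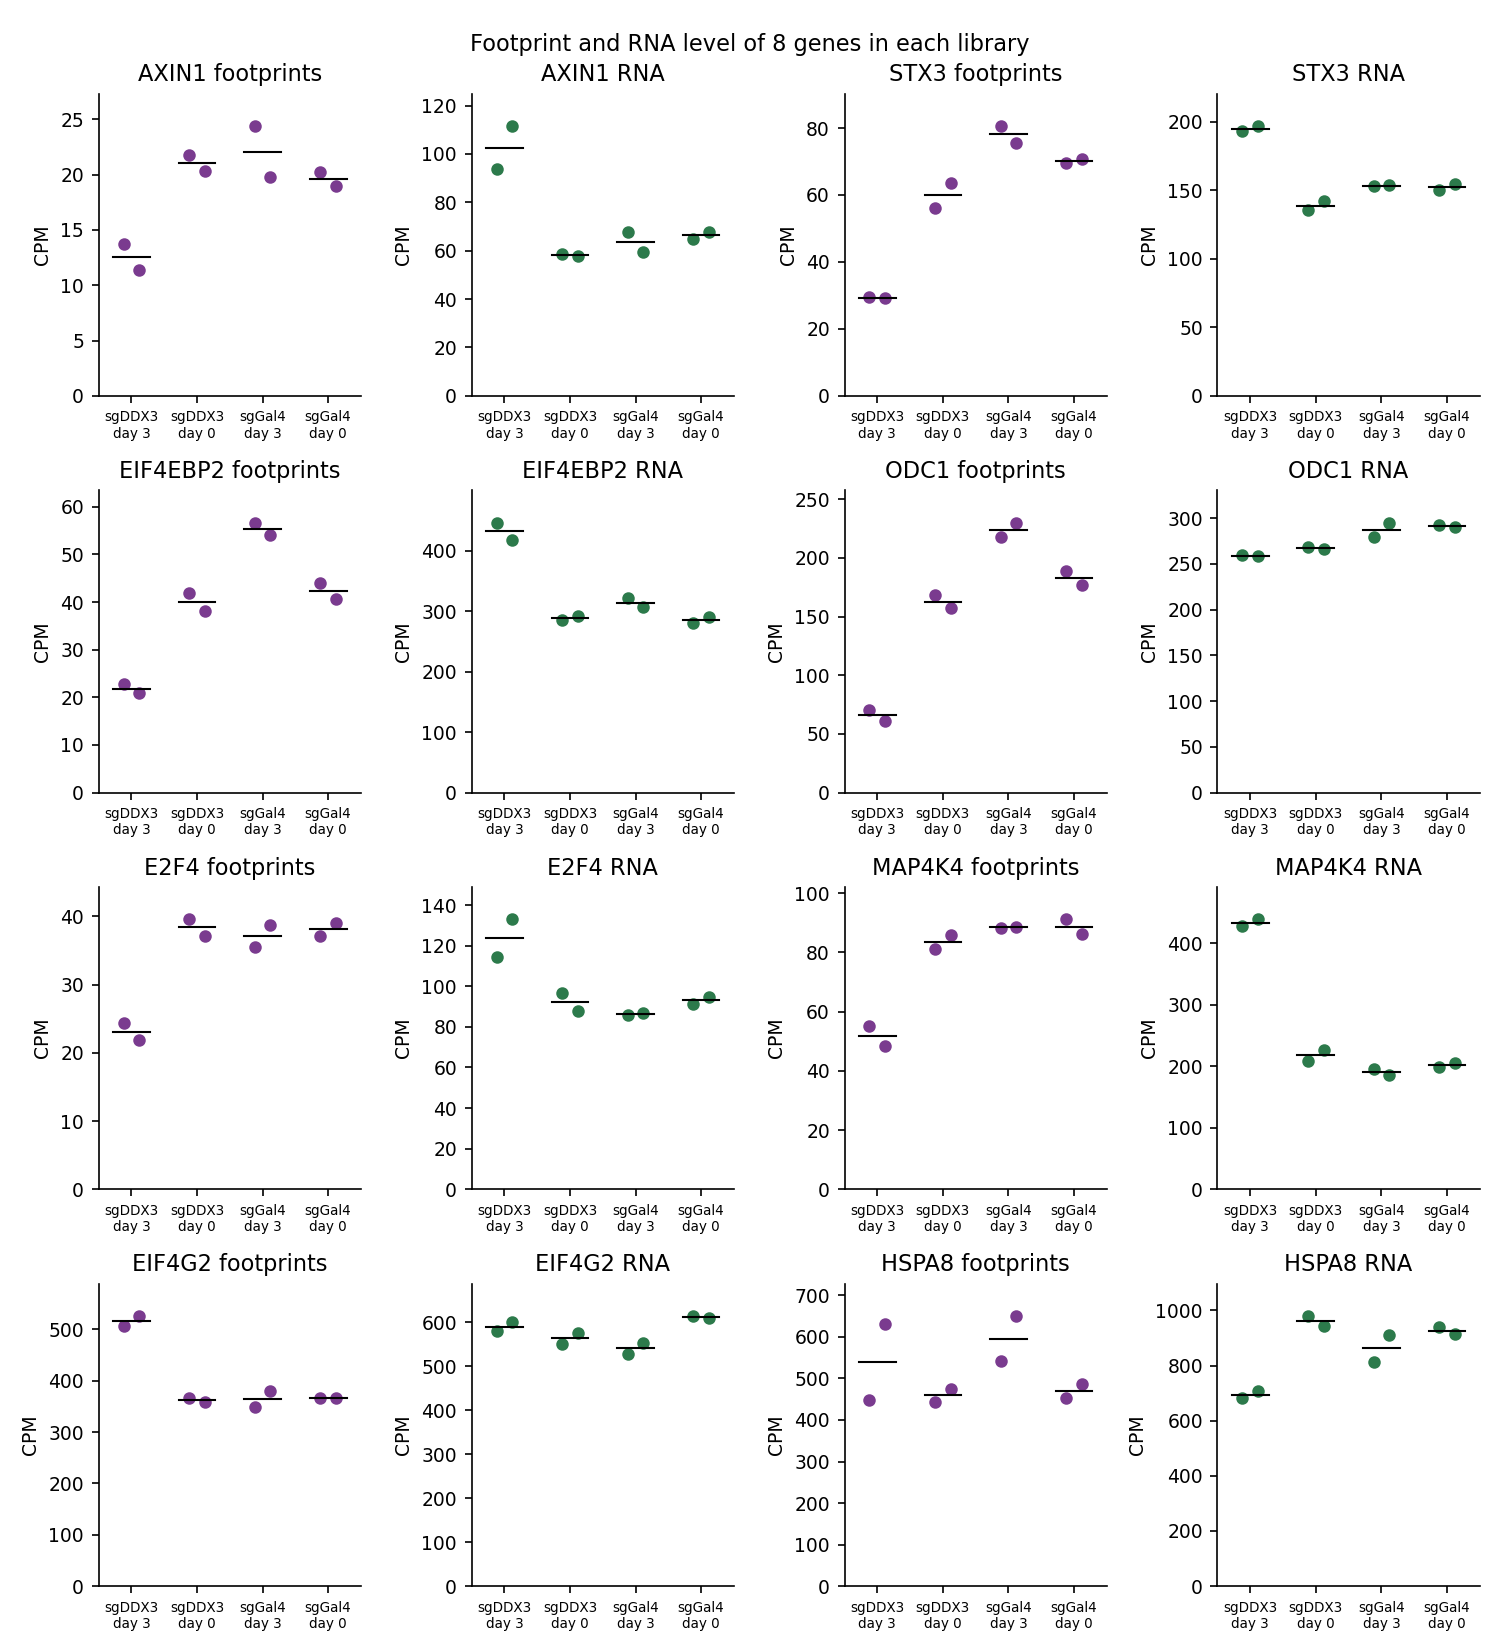
Each point is 1 library, with CPM on the y axis, footprints in purple and RNA in green, and black lines mark the mean of 2 libraries. Among the libraries plotted, which leave out day 14, in AXIN1, STX3, EIF4EBP2, E2F4 and MAP4K4 the sgDDX3 libraries of day 3 are lowest in footprints and highest in RNA, in ODC1 they are lowest in footprints, in EIF4G2 they are highest in footprints, and in HSPA8 the 2 footprint libraries of day 3 lie apart at 448 and 632 CPM.

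The start of the mRNA was set beside these changes, because it is the stretch a scanning ribosome meets first. The sequences that follow show the starts of 5 genes whose efficiency fell and of 2 whose efficiency rose, chosen after their values were seen from the named genes that RefSeq's promoter table (GRCh38.p14) lists. Each runs 5′ to 3′ on the gene's own strand, with 60 bases before the first start listed in lower case and the first 30 transcribed bases in capitals. AXIN1 (chr16:352694-352783, minus strand, efficiency -1.55), STX3 (chr11:59755316-59755405, plus strand, -1.53), EIF4EBP2 (chr10:70404085-70404174, plus strand, -1.46), ODC1 (chr2:10448298-10448387, minus strand, -1.26) and E2F4 (chr16:67192095-67192184, plus strand, -1.15) had 80%, 80%, 70%, 80% and 76% of G and C in their first 50 transcribed bases. HSPA8 (chr11:123062107-123062196, minus strand, 0.71) and EIF4G2 (chr11:10807967-10808056, minus strand, 0.44) had 48% and 56%. Which start these cells used was not analysed here.
AXIN1: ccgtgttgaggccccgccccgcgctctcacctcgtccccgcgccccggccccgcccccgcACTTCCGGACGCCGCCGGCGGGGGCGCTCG
STX3: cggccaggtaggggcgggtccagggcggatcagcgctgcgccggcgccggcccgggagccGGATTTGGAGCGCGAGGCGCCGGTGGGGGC
EIF4EBP2: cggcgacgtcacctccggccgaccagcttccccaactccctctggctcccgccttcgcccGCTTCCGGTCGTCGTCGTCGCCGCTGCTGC
ODC1: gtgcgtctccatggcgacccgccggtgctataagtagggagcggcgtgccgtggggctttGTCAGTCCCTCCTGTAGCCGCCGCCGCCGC
E2F4: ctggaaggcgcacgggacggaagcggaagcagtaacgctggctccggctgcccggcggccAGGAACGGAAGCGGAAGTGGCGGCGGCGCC
HSPA8: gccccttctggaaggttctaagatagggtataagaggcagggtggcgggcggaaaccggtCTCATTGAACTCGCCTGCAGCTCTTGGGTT
EIF4G2: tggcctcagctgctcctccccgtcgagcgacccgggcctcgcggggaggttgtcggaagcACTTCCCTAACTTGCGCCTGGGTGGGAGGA

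A difference in the same direction, but smaller, was seen over the called genes. HSPA8 and EIF4G2 lie below the quartile range of the higher genes and do not stand for that set. A start was listed for 454 of the 553 genes of lower efficiency (82.1%), 86 of the 98 of higher efficiency (87.8%) and 9488 of all 11519 (82.4%). The median share of G and C in the first 50 transcribed bases was 76% in the lower genes, 64% in the higher genes and 68% in all tested genes, and the 3 quartile ranges were 70% to 80%, 58.5% to 71.5% and 60% to 74%. In the 250 bases before the start the medians were 72.2%, 63.8% and 65.2%. Sorted by the first 50 bases, efficiency fell in 14.7% of the 1058 genes with 80% or more G and C, in 6.04% of the 3131 genes from 70% to under 80%, and in 1.67% of the 3295 genes from 60% to under 70%. Below 60% the shares were higher again, with 2.13% of the 1499 genes from 50% to under 60% and 4.36% of the 505 genes under 50%. Higher calls stayed between 0.607% and 1.13% in the 5 bins. The median log2 change of all genes in the richest bin was -0.18 with sgDDX3 and 0.04 with sgGal4. The 6 letters GGCGGC, searched on the transcribed strand only, with a gene counted once however often they recur, stood in the first 50 bases of 27.3% of the lower genes, 14.0% of the higher genes, 17.2% of all tested genes and 8.17% of all 35116 starts in the table. These shares are descriptions without a test. The 6 letters are all G or C, so their share rises with base composition and is not a separate feature, and genes of equal composition were not compared.

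**Figure D3:**
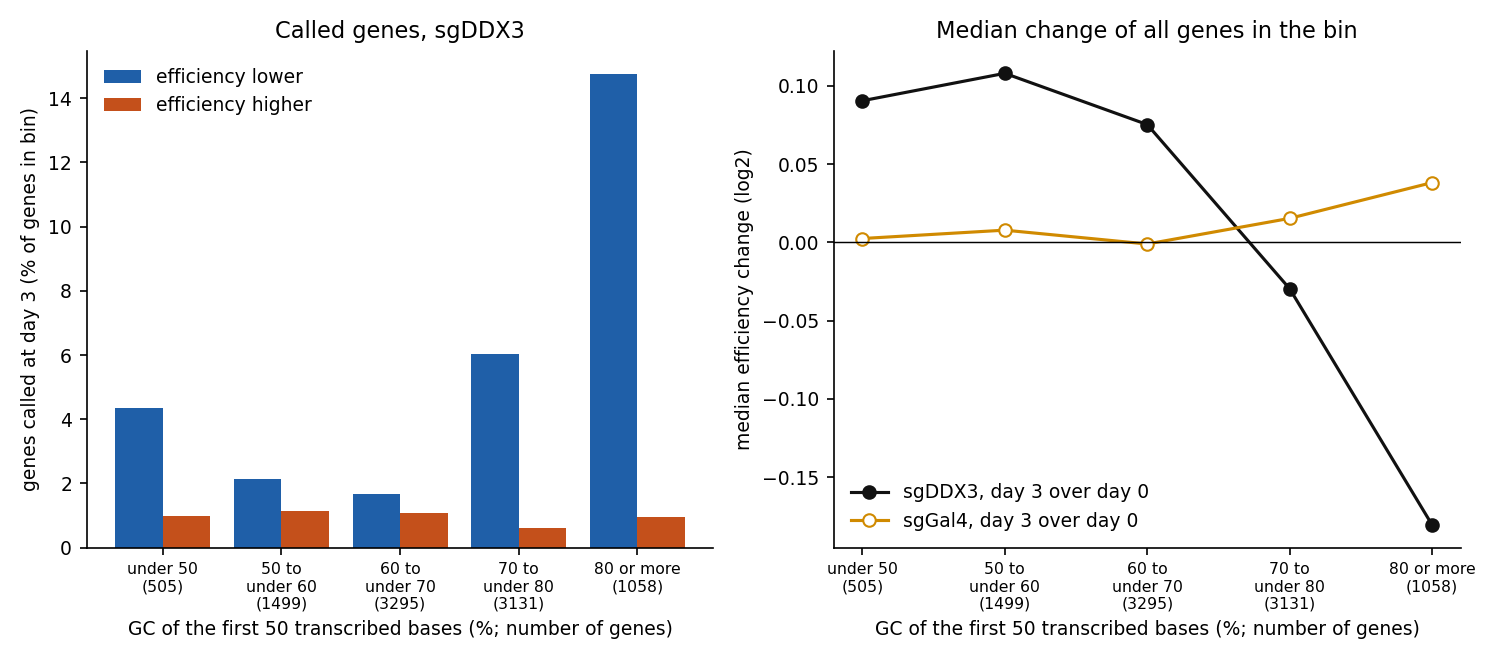
Genes are binned by the share of G and C in their first 50 transcribed bases (x axis, with the number of genes). On the left, the share of genes of lower efficiency with sgDDX3 (blue) reaches 14.7% in the richest bin, while that of higher efficiency (orange) stays at or under 1.13%, and on the right the median efficiency change (log2) with sgDDX3 (black) falls to -0.18 in that bin, against 0.04 with sgGal4 (orange line).

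The genes of lower efficiency also differed from the rest before the knockdown, in libraries that the contrast did not use. In the sgGal4 cells at day 0 their median ratio of footprint CPM to RNA CPM was 0.542, against 1.14 in the genes of higher efficiency and 0.823 in all tested genes. Their RNA was also counted more deeply, with a median of 74.5 CPM in those libraries, against 34.5 in the higher genes and 32.5 in all. These CPM are not set per length, so they describe counting precision and not mRNA levels.

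The highest efficiency changes were less even between replicates. By the same rule the 12 highest genes were ZNF512B (2.25 ± 0.28, SE), PANX2 (1.94 ± 0.56), MELTF (1.73 ± 0.43), AGAP1 (1.68 ± 0.35), ZC3H4 (1.68 ± 0.29), TMEM184B (1.58 ± 0.42), MCU (1.45 ± 0.26), FCGR2A (1.45 ± 0.30), SMAD6 (1.23 ± 0.22), APC2 (1.20 ± 0.31), ANXA2R (1.18 ± 0.21) and ZNF324B (1.15 ± 0.27). ZNF512B, a zinc finger protein, had 477 and 233 footprint CPM at day 3, against 67.1 and 52.8 CPM at day 0, with RNA at 106 and 130 CPM, against 98.6 and 88.3 CPM. ZC3H4, a zinc finger protein that restricts non-coding transcription, had 492 and 247 footprint CPM at day 3, against 127 and 115 CPM at day 0. MELTF, the membrane-bound melanotransferrin, had 170 and 50.9 footprint CPM at day 3, against 34.0 and 28.3 CPM at day 0. In each of these genes day 3 replicate 1 was far above replicate 2, though both lay above day 0. Of all 98 genes of higher efficiency, 23 had more than 1.5 times the footprint CPM in replicate 1, against 10 of the 553 of lower efficiency. The share over all tested genes and the reverse ratio were not counted. Both sets were picked by values that include these libraries, so the gap between them is partly built in. Day 3 footprint replicate 1 also had the lowest share of footprints on coding genes, 63.8% in a range up to 67.3% over the 4 footprint libraries, and the part of this in the higher calls was not tested.

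Leaving out that library ended the calls of PANX2 (0.69), MELTF (0.64), TMEM184B (0.49) and APC2 (0.55), moved ZNF512B to 1.65, ZC3H4 to 1.10, AGAP1 to 0.78 and FCGR2A to 0.93, and left the last 4 called. PANX2, a pannexin channel, kept its call in 4 of 14 alternatives, TMEM184B in 6, APC2, a relative of the APC scaffold, in 7, MELTF in 9 and ZNF324B in 12, the last lost without day 0 RNA replicate 1 (0.91) or day 0 footprint replicate 2 (0.95). A second feature was a high number of footprints for the RNA present. SMAD6, an inhibitor of BMP signalling, had 890 and 699 footprint CPM at day 3, against 606 and 487 CPM at day 0, on RNA at 17.1 and 18.5 CPM, against 28.2 and 28.5 CPM. MCU, the pore of the mitochondrial calcium uniporter, had 259 and 189 footprint CPM at day 3, against 90.5 and 88.4 CPM at day 0, on RNA at 28.3 and 23.2 CPM, against 29.9 and 27.0 CPM. FCGR2A, an Fc receptor whose family has near-identical copies and whose counts are therefore uncertain, had 510 and 272 footprint CPM at day 3, against 313 and 233 CPM at day 0. Its RNA was at 19.7 and 14.9 CPM at day 3, against 34.4 and 33.5 CPM at day 0. The footprints of FCGR2A overlapped between the days, and of the 2 assays only its RNA was called. Ratios over 5 in the sgGal4 libraries of day 0 were found in 10 of the 98 higher genes (10.2%), 3 of the 553 lower genes (0.542%) and 125 of all 11519 (1.09%). ANXA2R, a receptor for annexin A2, showed neither feature: its footprints were at 13.7 and 14.4 CPM at day 3, against 8.90 and 8.87 CPM at day 0, its RNA was at 14.0 and 12.7 CPM, against 20.0 and 18.3 CPM, and its call held in the 14 alternatives.

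Among the components of cap recognition, efficiency fell for 2 of 16 genes tested and rose for 1, against 4.80% lower and 0.851% higher over all tested genes, and the list median was 0.02. EIF4EBP2, a 4E-BP that binds the cap-binding protein eIF4E and holds back initiation, had 22.7 and 20.9 footprint CPM at day 3, against 41.9 and 38.2 CPM at day 0. Its RNA was at 446 and 418 CPM at day 3, against 286 and 292 CPM at day 0. The mRNA was thus more abundant and carried fewer footprints in both libraries (efficiency -1.46 ± 0.13, SE; adjusted p = 7.11e-08). PAIP1, which binds the poly(A)-binding protein and promotes translation, fell by 0.48 ± 0.10. EIF4G2, a relative of the scaffold eIF4G that lacks the eIF4E-binding site, had 506 and 526 footprint CPM at day 3, against 367 and 358 CPM at day 0, on RNA at 579 and 599 CPM, against 551 and 574 CPM. Its efficiency rose by 0.44 ± 0.11, a call lost without day 0 RNA replicate 2 (0.41), day 3 RNA replicate 1 (0.42), day 0 footprint replicate 2 (0.42) or day 3 footprint replicate 2 (0.41), and without the low-count filter (0.43). None of 31 other initiation factors was called (5 at an unadjusted p under 0.05, and 0 by DESeq2), from EIF2D at -0.30 to EIF1 at 0.34, and none of 41 RNA helicases (4 at an unadjusted p under 0.05, and 0 by DESeq2), from DDX19B at -0.30 to DHX57 at 0.53. Over all 11519 tested coding genes, 2098 (18.2%) had an unadjusted p under 0.05 by edgeR in this contrast.

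In the list of ATF4 and upstream open reading frame mRNAs, efficiency fell for 2 of 17 and rose for 0 (4.80% lower and 0.851% higher over all tested genes). Both were kinases of eIF2alpha, which shut down initiation under stress, and the other kinases of that family were not called, with EIF2AK2 at -0.0033 ± 0.18 and EIF2AK3 at 0.07 ± 0.23. EIF2AK4 (GCN2), which senses amino acid shortage, had 15.5 and 13.4 footprint CPM at day 3, against 17.6 and 19.9 CPM at day 0, on RNA at 102 and 99.8 CPM, against 64.8 and 69.2 CPM (efficiency -0.99 ± 0.15). EIF2AK1 (HRI), which senses heme shortage and is the main such kinase of erythroid cells, fell by 0.38 ± 0.11, with a call kept in 4 of 14 alternatives and values from -0.43 to -0.33 over them. None of the 50 large and 33 small ribosomal subunit proteins was called (6 and 6 at an unadjusted p under 0.05, against 18.2% of all tested genes). DESeq2 called 0 and 1 of them, RPS10 (0.57 in edgeR, adjusted p = 0.0550), which rose. Their median efficiency changes were 0.07 and 0.09, and those of RNA were -0.06 and -0.06.

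Wnt signalling had the largest share of lower calls of the 32 lists: 6 of 20 genes fell and 0 rose, against 4.80% lower and 0.851% higher over all tested genes, and the median was -0.26. The lists were chosen with earlier results of these data known, so this rank is a description and no test. Dishevelled proteins carry the signal from the receptor, and all 3 of them fell. DVL1 had 22.9 and 27.1 footprint CPM at day 3, against 31.0 and 28.7 CPM at day 0, while its RNA was at 163 and 180 CPM at day 3, against 102 and 90.5 CPM at day 0 (efficiency -1.06 ± 0.16). DVL2 had 25.3 and 27.4 footprint CPM at day 3, against 48.3 and 42.3 CPM at day 0, on RNA at 53.7 and 62.5 CPM, against 45.9 and 42.6 CPM (efficiency -1.15 ± 0.17). Of the 2 assays, only RNA was called for DVL1, and both were called for DVL2. DVL3 fell by 0.74 ± 0.12. AXIN1, the scaffold of the complex that destroys beta-catenin and so a brake on the pathway, had 13.7 and 11.4 footprint CPM at day 3, against 21.8 and 20.3 CPM at day 0, and 93.6 and 112 RNA CPM, against 58.8 and 57.9 CPM (efficiency -1.55 ± 0.19). The co-receptor LRP5 (-0.60 ± 0.14) and the kinase CSNK1E (-0.57 ± 0.14), which phosphorylates Dishevelled, also fell. Members that activate and members that restrain the pathway were thus both among the 6, and the number of lower members was between 4 and 7 over the alternatives.

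Polyamines are small cations needed for growth, and their synthesis is known to be controlled largely at translation. Of 18 genes tested, efficiency fell for 3 and rose for 1 (over all tested genes, 4.80% and 0.851%), with a median of -0.05. ODC1, the rate-limiting enzyme, had 70.5 and 61.0 footprint CPM at day 3, against 168 and 157 CPM at day 0, while its RNA was at 259 and 259 CPM at day 3, against 269 and 266 CPM at day 0. Its footprints fell by 1.31 ± 0.10, while its RNA had a change of -0.05 (adjusted p = 0.748; efficiency -1.26 ± 0.13, adjusted p = 8.02e-07). AZIN1, an ODC-like protein without enzyme activity that protects ODC1 from degradation, had 125 and 134 footprint CPM at day 3, against 116 and 116 CPM at day 0, on RNA at 129 and 122 CPM, against 156 and 156 CPM, and its efficiency rose (0.48 ± 0.10). ATP13A3, a polyamine transporter, fell by 0.63 ± 0.14, and spermidine synthase, SRM, fell by 0.52 ± 0.14. The SRM call (adjusted p = 0.0332) was not kept in every alternative.

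Of 28 genes of G1/S control, efficiency fell for 4 and rose for 1 (over all tested genes, 4.80% and 0.851%), with a median of -0.07. E2F4, a repressor E2F of resting cells, had 24.4 and 21.9 footprint CPM at day 3, against 39.6 and 37.2 CPM at day 0, on RNA at 114 and 133 CPM, against 96.6 and 87.7 CPM (efficiency -1.15 ± 0.16). E2F1, an activator of S phase genes, had 7.04 and 6.13 footprint CPM at day 3, against 14.5 and 12.2 CPM at day 0, on RNA at 48.7 and 50.7 CPM, against 54.8 and 52.1 CPM (efficiency -0.90 ± 0.19). Their dimer partner TFDP1 (-0.55 ± 0.13) and the D-type cyclin CCND3 (-0.59 ± 0.13) fell as well, while the kinase CDK6 rose (1.04 ± 0.25). The E2F1 call was lost without day 3 footprint replicate 2 (-0.79), and that of CCND3 without that library (-0.45) or day 0 RNA replicate 2 (-0.55). The genes of S phase itself changed in level and not in called efficiency. Over all tested genes 12.4% had lower RNA and 8.90% fewer footprints. Of 42 DNA replication genes 38 had lower RNA and 28 fewer footprints, with medians of -0.56 and -0.47. In efficiency 0 of the 42 were called (1 at an unadjusted p under 0.05, against 18.2% of all tested genes, and 0 by DESeq2). Of 45 replication-dependent histone genes 43 had lower RNA and 36 fewer footprints, and only H2AC21 was called in efficiency (0.45 ± 0.13), with 192 and 210 footprint CPM at day 3, against 315 and 287 CPM at day 0, on RNA at 24.7 and 27.1 CPM, against 52.9 and 52.4 CPM. Its call was kept in 5 of 14 alternatives (0.38 to 0.52), and histone copies can share reads.

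K562 cells are driven by the BCR-ABL fusion kinase. Of 23 genes of BCR-ABL and STAT5 signalling, efficiency fell for 3 and rose for 0, against 4.80% lower and 0.851% higher over all tested genes. GAB2, an adaptor that links BCR-ABL to PI3K and RAS, had 74.5 and 65.4 footprint CPM at day 3, against 60.02 and 63.7 CPM at day 0, while its RNA was at 424 and 401 CPM, against 206 and 201 CPM (efficiency -0.85 ± 0.13). Its RNA was 2.03-fold higher, with no called change in footprints. With sgGal4 GAB2 RNA rose over the same days too, by 0.46 ± 0.08 (adjusted p = 0.00163), and its footprints by 0.35 ± 0.09 (adjusted p = 0.0258). ABL1 had RNA at 458 and 500 CPM at day 3, against 323 and 306 CPM at day 0 (efficiency -0.52 ± 0.12), and BCR had RNA at 287 and 315 CPM, against 227 and 211 CPM (efficiency -0.47 ± 0.12). Neither had a called change in footprints, and reads of the fusion mRNA cannot be told apart from those of the 2 genes. The ABL1 call was lost without day 0 RNA replicate 2 (-0.48), day 3 RNA replicate 2 (-0.46) or day 0 footprint replicate 1 (-0.42), and that of BCR was kept in 8 of 14 alternatives (-0.61 to -0.33).

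K562 cells are also of the erythroid kind and make heme and handle iron. Of 35 erythroid and heme genes efficiency fell for 2 and rose for 0, a share near the 4.80% lower over all tested genes and so no result about the list. ZFPM1, the partner of GATA1 known as FOG1, was 1 of them (-0.83 ± 0.21). Of 18 iron genes 2 fell and 1 rose (0.851% higher over all tested genes), with a median of 0.22. FTL, the ferritin light chain that stores iron, had 52.3 and 42.3 footprint CPM at day 3, against 67.9 and 69.3 CPM at day 0, on RNA at 1311 and 1335 CPM, against 1225 and 1144 CPM (efficiency -0.70 ± 0.15). IREB2, which represses ferritin translation when iron is scarce, rose by 0.53 ± 0.14, and the mitochondrial iron importer SLC25A37 fell by 0.48 ± 0.14. The FTL call was lost without day 3 footprint replicate 2 (-0.55), and those of ZFPM1, IREB2 and SLC25A37 were kept in 10, 9 and 7 of 14 alternatives.

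In other lists 1 or 2 genes were called, which for lists of this size is no result about the list beside 4.80% lower and 0.851% higher over all tested genes. JUND, an AP-1 subunit with an intronless gene, had 73.6 and 63.5 footprint CPM at day 3, against 129 and 109 CPM at day 0, and its efficiency fell by 0.92 ± 0.16. The growth factor response gene EGR3 had little RNA, at 3.51 and 3.56 CPM at day 3, against 0.673 and 0.549 CPM at day 0, and 6.67 and 3.79 footprint CPM, against 4.29 and 4.81 CPM (efficiency -2.32 ± 0.42), and of the 2 assays only its RNA was called. With sgGal4 EGR3 RNA rose too, by 1.48 ± 0.32 (adjusted p = 0.00698). JUND and EGR3 were 2 of 22 immediate early genes. CRELD2, a secreted protein of the ER stress response, fell by 0.80 ± 0.22 as 1 of 23 ER genes. HSPA8, the constitutive HSP70, had 448 and 632 footprint CPM at day 3, against 444 and 474 CPM at day 0, and RNA at 682 and 707 CPM, against 979 and 945 CPM. Its efficiency rose by 0.71 ± 0.18 as 1 of 25 heat shock genes, while its footprints overlapped between the days. COX6C, a subunit of cytochrome c oxidase, rose by 0.51 ± 0.13 as 1 of 76 nuclear genes of oxidative phosphorylation, and LARP4, a poly(A) binding protein, by 0.45 ± 0.13 as 1 of 25 stress granule and P-body genes. The calls of CRELD2, HSPA8, COX6C and LARP4 were kept in 8, 7, 8 and 5 of 14 alternatives, and without day 3 footprint replicate 2 the values of HSPA8, COX6C and LARP4 were 0.44, 0.32 and 0.29.

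**Figure D4:**
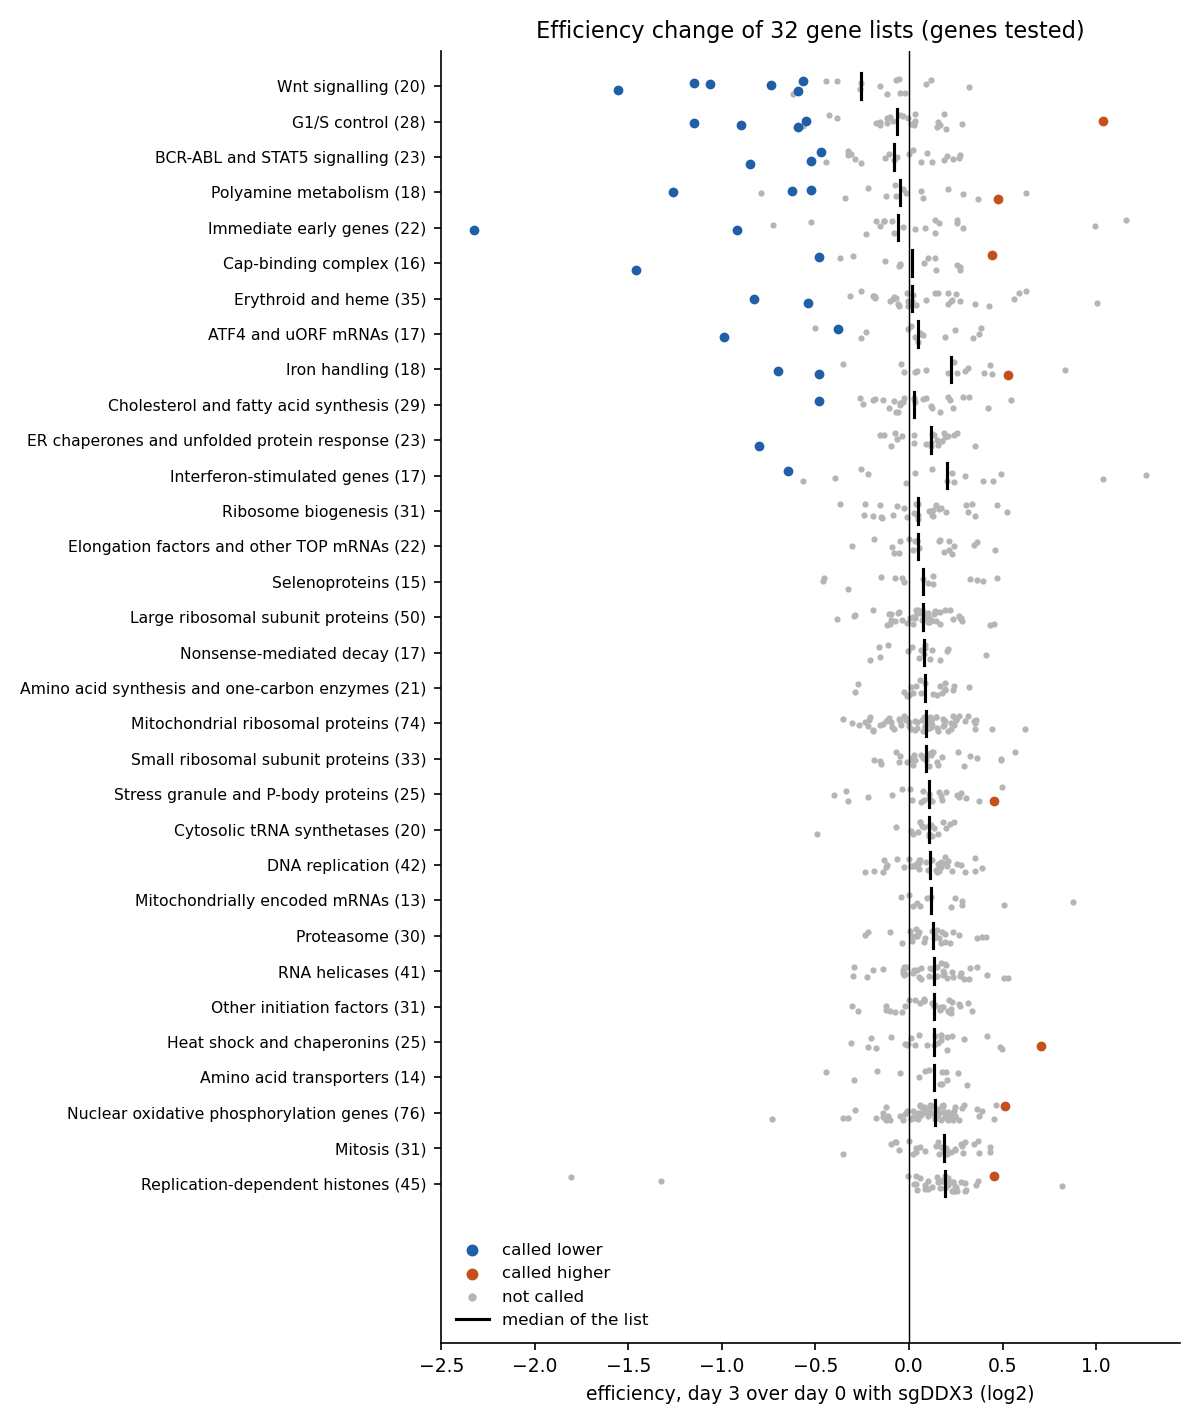
Each point is a tested gene of 1 of 32 lists (number tested in brackets), with its log2 change of efficiency at day 3 over day 0 with sgDDX3 on the x axis, filled blue or orange where called, and black bars mark list medians. Lower calls took the largest share in Wnt signalling, with 6 of 20 genes and a median of -0.26, while the ribosomal protein lists gather around 0.07 and 0.09 with none called. The lists were chosen with earlier results of these data known.

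Of the 32 lists, 16 had no call at all by edgeR. They held 480 genes, with efficiency changes from -0.49 to 0.88, of which 15 were lower and 41 higher at an unadjusted p under 0.05. Over all 11519 tested coding genes, 2098 (18.2%) had an unadjusted p under 0.05 in this contrast. DESeq2 called 4 of the 480: the elongation factors EEF1A1 and EEF2 and RPS10 rose, and the tRNA synthetase VARS1 fell. Besides those given above, they were other TOP mRNAs, amino acid enzymes, amino acid transporters, tRNA synthetases, ribosome biogenesis genes, proteasome subunits, mitochondrial ribosomal proteins, mitochondrially encoded mRNAs, mitosis genes, selenoproteins and nonsense-mediated decay factors. Among the proteasome subunits, RNA was lower for 17 of 30 and footprints for 7 (12.4% and 8.90% over all tested genes), with medians of -0.29 and -0.17, while the median efficiency change was 0.13. Among the mitosis genes RNA was lower for 18 of 31.

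Cells with the control guide gave no call over the same days. With sgGal4, efficiency rose at day 3 for 0 coding genes (0%) and fell for 0 (0%) by edgeR, while 441 (3.83%) had an unadjusted p under 0.05 and DESeq2 called 1 as higher. The genes of lower efficiency with sgDDX3 had a median change of 0.05 with sgGal4, and the genes of higher efficiency one of 0.13. The difference between the guides was then tested in itself: the change was lower with sgDDX3 than with sgGal4 for 258 genes (2.24%) and higher for 6 (0.0521%). It used the sgDDX3 libraries a second time, so it is not an independent repeat. ODC1 shows the contrast: its footprints were at 70.5 and 61.0 CPM with sgDDX3 at day 3, while with sgGal4 they were at 218 and 230 CPM at day 3, against 189 and 177 CPM at day 0 (difference -1.58, adjusted p = 1.07e-05). EIF4EBP2 had 22.7 and 20.9 footprint CPM with sgDDX3 at day 3, while with sgGal4 it had 56.7 and 54.0 CPM at day 3, against 44.0 and 40.6 CPM at day 0 (difference -1.71, adjusted p = 1.34e-06). Of the 12 highest genes only ANXA2R passed this test (1.24, adjusted p = 0.0205), a call kept in 13 of 21 alternatives, and ZNF512B (1.36, adjusted p = 0.0805) and AGAP1 (0.82, adjusted p = 0.604) had changes of 0.89 and 0.86 with sgGal4 as well. Without sgDDX3 day 3 footprint replicate 2, replicate 1 stood alone for that group. The difference was then 1.41 for AGAP1, 1.59 for ZC3H4, 1.78 for APC2, 1.79 for ZNF512B, 1.85 for FCGR2A, 2.11 for MELTF, 2.15 for TMEM184B and 2.76 for PANX2. Without the low-count filter the difference passed for 8, namely these genes without AGAP1 and with MCU (1.09). Without day 3 footprint replicate 1 the AGAP1 difference was -0.08. For the rest of these genes, the lowest differences over the 21 alternatives were 0.59 (ZC3H4), 0.65 (APC2), 0.76 (ZNF512B), 0.95 (FCGR2A), 0.38 (MELTF), 0.41 (TMEM184B), 0.79 (PANX2) and 0.85 (MCU). The count of 258 was 163 without sgDDX3 day 3 footprint replicate 2 and 167 without sgGal4 day 3 footprint replicate 1. The count of 6 was 44 and 21 without sgDDX3 day 3 footprint replicates 2 and 1. It was 1 to 3 without sgDDX3 day 0 RNA replicate 2, sgDDX3 day 0 footprint replicate 1, sgGal4 day 0 RNA replicate 1, sgGal4 day 3 RNA replicate 2, sgGal4 day 0 footprint replicate 1, or either sgGal4 day 3 footprint library.

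**Figure D5:**
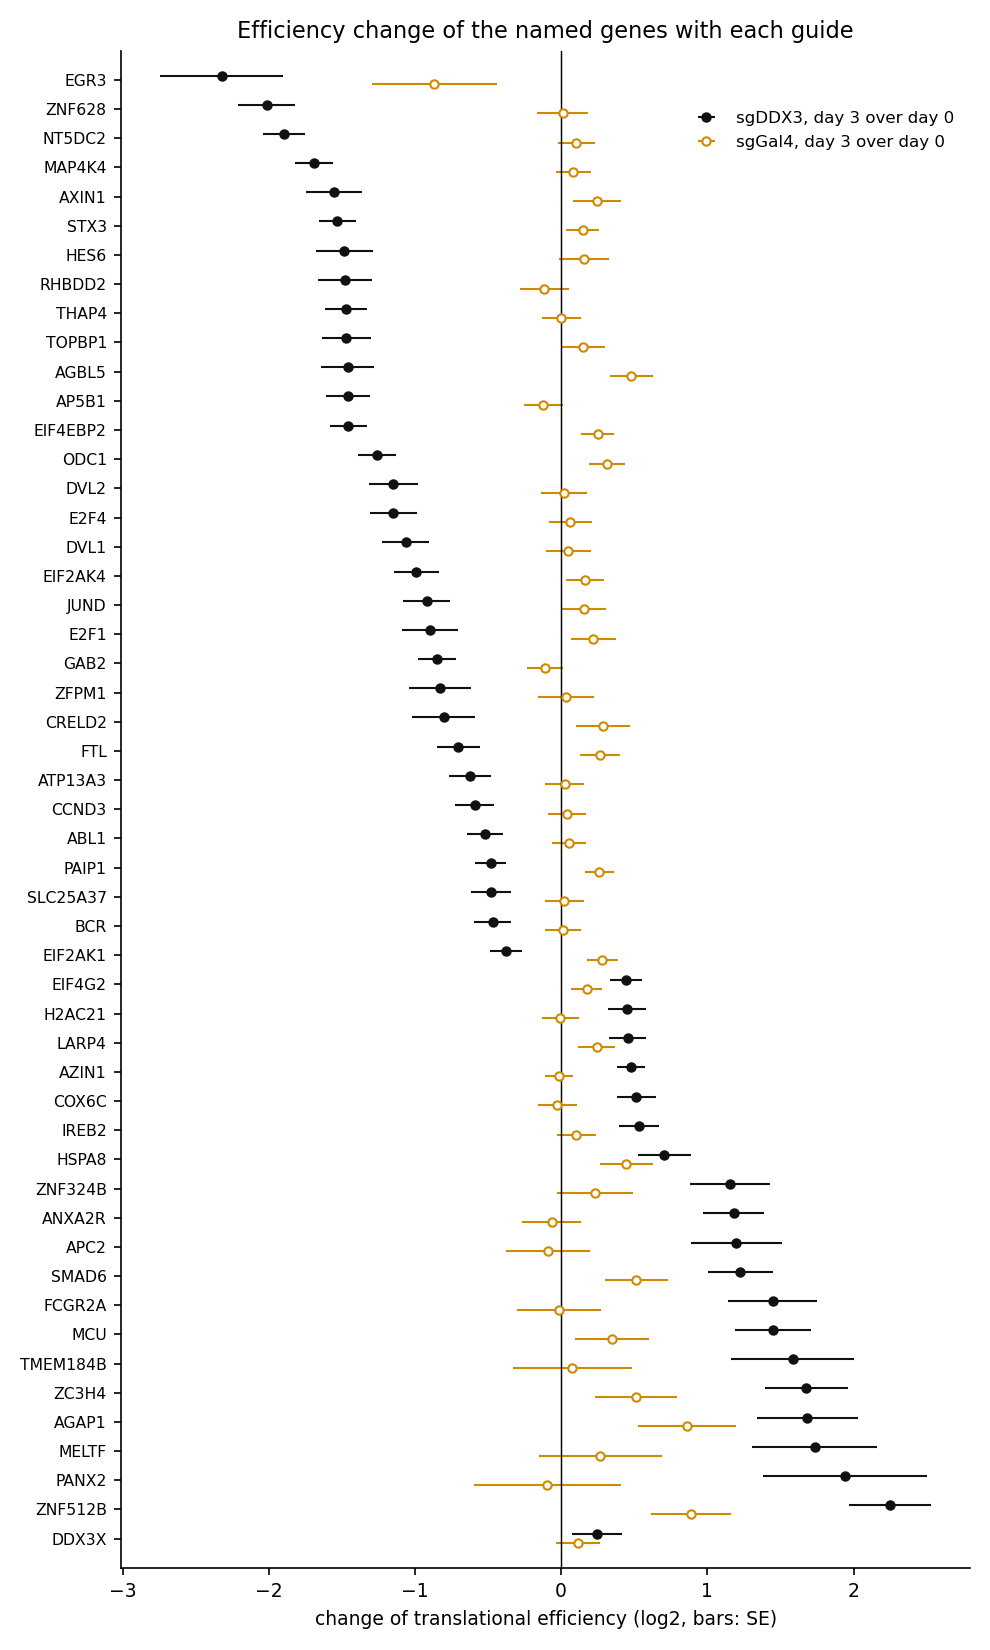
Points are the log2 change of efficiency at day 3 over day 0 for the 51 named genes, with sgDDX3 in black and sgGal4 in open orange, and bars are standard errors from the fit. The sgDDX3 values of the genes from ZNF628 to EIF2AK1 lie left of 0 while their sgGal4 values lie between -0.12 and 0.48, EGR3 lies left of 0 with both guides, and several of the highest genes, such as ZNF512B and AGAP1, lie right of 0 with both guides.

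The same genes were then read at day 14. Over all coding genes, efficiency rose for 142 (1.23%) and fell for 170 (1.48%) at day 14 over day 0 with sgDDX3. These counts were 348 and 323 without day 14 RNA replicate 2. They were 33 to 71 and 51 to 105 without any 1 of the 4 day 0 libraries, day 14 RNA replicate 1 or day 14 footprint replicate 1. The 553 genes that were lower at day 3 had a median of -0.42 at day 14, with 548 of them negative, and the 98 higher genes one of 0.47, with 95 positive. The genes were picked by their day 3 values, so a smaller median at day 14 is to be had from the choice alone and is not read as a change, and both contrasts use the same day 0 libraries, so their shared sign is not independent. In the order of days 0, 3 and 14, ratios of mean footprints to mean RNA were 0.608, 0.254 and 0.439 for ODC1, 0.139, 0.0504 and 0.103 for EIF4EBP2, 0.432, 0.150 and 0.252 for STX3, and 0.417, 0.187 and 0.295 for E2F4. For ZNF628 the ratio was 0.629, 0.154 and 0.184. DDX3X RNA over the same days was at 176 and 186 CPM, then 39.0 and 33.8 CPM, then 135 and 102 CPM.

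Depth in the 8 libraries was 1.03e+07 to 2.61e+07 counts in RNA and 6.22e+06 to 1.03e+07 in footprints, and coding genes took 83.9% to 84.5% of the RNA counts. Of 11 erythroleukaemia markers 9 had at least 10 counts in each of the 4 RNA libraries, and their summed level was 1698 to 1733 CPM at day 3, against 2031 to 2044 CPM at day 0. Myeloid markers summed to 77.9 to 98.1 CPM at day 3, against 84.6 to 87.6 CPM at day 0 (4 of 10 with 10 counts in each library; MPO, S100A8 and S100A9 at 0). Megakaryocytic markers summed to 18.8 to 22.6 CPM, against 21.5 to 22.2 CPM (3 of 10; GP1BB, PF4, PPBP, VWF and SELP at 0), and lymphoid markers to 10.1 to 11.2 CPM, against 13.2 to 13.5 CPM (2 of 10; MS4A1 at 0). Their part in the efficiency changes was not tested.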

How the data were processed

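Ribosome footprints (cycloheximide lysates digested with RNase I) and ribosomal RNA-depleted cytosolic RNA were measured in 24 libraries, 12 groups of 2 replicates. The values are whole-number counts per gene as deposited by the authors, not normalized. The submitters' processing notes name STAR 2.7.5a, Bowtie2 2.4.1, DESeq2, cutadapt 3.4 and the build GRCh38. For counting, neither tool nor annotation nor strand setting is given in those notes or labels, so overlapping and antisense genes may share reads. Of 58037 genes, 45 second copies of the pseudoautosomal region were left out. Genes were called protein-coding by RefSeq.

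Libraries were scaled by TMM within each assay, and CPM use those scaled totals. Genes with enough counts in both assays (filterByExpr, minimum count 10; 14853 genes, 11519 of them coding) entered edgeR 4.0.16 (limma 3.58.1, R 4.3.3) with 1 mean per group over all 24 libraries. Efficiency was tested as the difference of the footprint and RNA contrasts by the quasi-likelihood test, adjusted over all 14853 genes, with a threshold of 0.05. The steps were tested on simulated data. Of simulated 2-fold changes in sgDDX3 day 3 footprints, 69 of 100 lower and 81 of 100 higher genes were called, and 8 of 11319 unchanged genes. A gene that was not called may thus still have changed. The simulation gave each gene the same spread in all groups and changed footprints only. It therefore does not give the error rate of the real data, whose groups differ in spread and in RNA. Replicates differed by more than sampling noise in each group. Chi-square per degree of freedom was 5.48 and 1.82 in sgDDX3 footprints of days 3 and 0, and 6.01 and 2.79 in sgDDX3 RNA. In sgGal4 footprints it was 2.34 and 4.15, while the fit shares its spread estimate over the groups. Counts behind a value limit its precision, and a floor of 3 counts is 0.115 to 0.292 CPM in RNA and 0.292 to 0.482 CPM in footprints.

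Named genes are DDX3X, the 12 highest and 12 lowest efficiency calls with a mean of at least 10 CPM in both assays and ratios that do not overlap between the days, and up to 3 called genes with the smallest p from each list. DVL3, LRP5, CSNK1E, SRM, TFDP1, CDK6, EIF2AK2, EIF2AK3, the genes at the ends of a list's range and those called by DESeq2 alone were named outside that rule, after their values were seen. The contrast, the lists and the tests were chosen with earlier results of these data known. Some genes that the rule picked are not reported here. Protein length was to be compared but was not used here. Alternatives were DESeq2 1.42.0 with the same design, its size factors, no count filter, coding genes only, the 8 libraries alone, a replicate block and leaving out each library. Leaving out the sgGal4 and day 14 libraries was added after seeing the data. Figures used Python 3.11.15 and matplotlib 3.10.9.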

Additional observations from a re-analysis of the deposited data

Results flagged for a closer look

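The change of efficiency at day 3 over day 0 was compared between the guides by a test of the difference itself (edgeR quasi-likelihood test of the sgDDX3 change minus the sgGal4 change, Benjamini-Hochberg adjusted p under 0.05). It was lower with sgDDX3 for 258 coding genes and higher for 6. Among the genes named for the lowest efficiency, the difference in log2 change was -2.02 for ZNF628, -2.00 for NT5DC2, -1.94 for AGBL5, -1.80 for AXIN1, -1.77 for MAP4K4, -1.68 for STX3, -1.64 for HES6, -1.62 for TOPBP1, -1.47 for THAP4, -1.36 for RHBDD2 and -1.34 for AP5B1. These 11 differences kept their call in the 21 alternatives run on them.

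Among the genes named from the lists, it was -1.71 for EIF4EBP2, -1.58 for ODC1, -1.21 for E2F4, -1.17 for DVL2, -1.15 for EIF2AK4, -1.12 for E2F1, -1.11 for DVL1, -1.09 for CRELD2, -1.07 for JUND, -0.97 for FTL, -0.74 for PAIP1, -0.74 for GAB2 and -0.66 for EIF2AK1. Among the genes named for the highest efficiency, only ANXA2R passed, at 1.24. The calls of CRELD2, GAB2, ANXA2R, EIF2AK1 and E2F1 were kept in 7, 12, 13, 16 and 19 of the 21 alternatives, and the others in each of them. Not all genes named from the lists passed (adjusted p from 0.0648 to 0.813 in those that did not). Of those with lower efficiency, ATP13A3, CCND3, ZFPM1, SLC25A37, EGR3, ABL1, BCR, SRM and LRP5 did not pass. Of those with higher efficiency, AZIN1, EIF4G2, COX6C, H2AC21, IREB2, HSPA8 and LARP4 did not pass. DVL3 (-0.81) and CSNK1E (-0.77), which like SRM and LRP5 were named outside the rule, did pass.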

How the results depend on the processing

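Over the 14 alternatives for the sgDDX3 contrast of day 3, the counts of lower efficiency were 332 to 606 and those of higher efficiency 41 to 152, and all 553 and 98 genes kept their sign. Leaving out 1 library gave 332 to 558 lower and 41 to 152 higher genes, 599 to 1040 genes with fewer and 325 to 749 with more footprints, and 759 to 1517 with less and 947 to 1768 with more RNA. Without a low-count filter sgGal4 gave 9 higher and 4 lower genes, DESeq2 gave 1 higher, and leaving out 1 library gave 0 to 1 higher and 0 lower. For the difference between the guides, the higher genes numbered 13 by DESeq2, 47 without the filter, 17 on coding genes alone and 1 to 44 with 1 library left out, and the lower genes 163 to 330. At day 14 the higher genes numbered 238 without the filter and 33 to 348 with 1 library left out, and the lower genes 51 to 323. The cause was not tested. The sign of the difference between the guides, which had not passed the test, reversed with 1 library left out for DDX3X (-0.10 to 0.31), HSPA8 (-0.0115 to 0.48) and AGAP1 (-0.0773 to 1.41), for the first 2 without sgDDX3 day 3 footprint replicate 2 and for AGAP1 without replicate 1.

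Same-numbered sgDDX3 libraries of days 3 and 0 showed little shared deviation (Pearson r across genes from -0.19 to 0.11). With 2 libraries a group, counting noise alone lowers r, so whether the replicate numbers pair libraries stays unknown. The replicate block gave 551 lower and 98 higher genes, of which 529 and 91 were among those called without it, and the PANX2 and EIF2AK1 calls were lost under it. With 2 replicates a group, leaving 1 out assumes that the lone library varies like the other groups. Footprint depth limits genes with few counts.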
